A study of Homo sapiens with 4 samples.

Results

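INSIG1, FDPS, SQLE and APOC1 are 4 genes of cholesterol metabolism. Their windows were taken from a genome-wide table of 500 bp windows by position alone. A window was assigned to a gene when its midpoint lay between 3000 bp upstream of the start of the canonical transcript and the end of that transcript. Of the 130 windows of hg19 that met this rule, 65 were in the deposited table, which holds 956365 windows in all. The table listed 16 windows of INSIG1, 18 of FDPS, 27 of SQLE and 4 of APOC1. In what follows a window that is in the table is called listed.

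The libraries were made from FaDu, an established cell line from a human squamous cell carcinoma of the hypopharynx. There was 1 library for each of 4 conditions. Cells with a scrambled control or with knockdown of TET1 (TET1-si) were kept under normoxia, and cells of both kinds were kept under hypoxia at 1% oxygen, for 18 h with the scrambled control and 19 h with TET1-si. TET1 is a dioxygenase that converts 5-methylcytosine (5mC) into 5-hydroxymethylcytosine (5hmC). The knockdown vectors of the study were lentiviral short hairpin RNAs, which the scrambled control cells carried as well. The sample titles name hMeDIP-seq and the labels describe an antibody against 5-methylcytidine, whereas the methods of the study describe chemical labelling of 5hmC. The mark that was enriched is therefore uncertain.

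The names of the 4 columns of values in the table matched no sample label. No column was assigned to a condition, none of these values was used, and no effect of hypoxia or of TET1 knockdown on the 4 genes can be given here. The depth of the libraries was not analysed either. What remains is which windows the table lists, a property of the 4 libraries together. The file name points to a minimum of reads, but the rule by which windows entered the table was not tested, so that an unlisted window may have had reads.

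Cholesterol is made from acetyl-CoA through mevalonate and the isoprenoid diphosphates. When sterols are low, SREBP transcription factors leave the endoplasmic reticulum with their escort SCAP and activate the genes of this pathway. INSIG1 is a membrane protein of the endoplasmic reticulum that holds the SCAP-SREBP complex back when sterols are abundant. FDPS (farnesyl diphosphate synthase) makes farnesyl diphosphate, the branch point to sterols and to protein prenylation. SQLE (squalene epoxidase) carries out the first oxygenation of the sterol branch and uses molecular oxygen. APOC1 (apolipoprotein C1) makes no sterol. It is a small exchangeable protein of plasma lipoproteins. In DNA, 5mC and 5hmC lie mostly at CpG sites, and CpG-rich sequence at the start of active genes usually carries little of either.

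Stretches upstream of INSIG1 and FDPS are shown so that the CpG sites of listed and unlisted windows can be set side by side. All are from the plus strand of GRCh37, whose coordinates are those of hg19 on these chromosomes, and capitals mark CpG sites. The first 2 are the INSIG1 regions that the study amplified for its locus assays of 5hmC and 5mC. They are 92 and 74 bp long and lie at chr7:155088031-155088122 and chr7:155088566-155088639, from -1557 to -1466 and from -1022 to -949 relative to the first base of the canonical transcript, which is counted as 0 here and below. The study names the same regions by smaller distances, counted from a start farther upstream. Each contains 5 CpG sites and lies in a listed window that overlaps INSIG1-DT, which is transcribed from the opposite strand into a non-coding RNA. The third, at chr7:155089286-155089485, is the 200 bp from -302 to -103, which end just before the first base of any annotated INSIG1 transcript. It lies in an unlisted window and contains 34 CpG sites.
INSIG1 distal amplicon, listed: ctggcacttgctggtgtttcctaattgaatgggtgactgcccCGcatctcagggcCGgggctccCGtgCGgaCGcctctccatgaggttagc
INSIG1 proximal amplicon, listed: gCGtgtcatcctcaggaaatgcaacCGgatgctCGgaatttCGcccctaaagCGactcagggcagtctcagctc
INSIG1 next to the start, unlisted: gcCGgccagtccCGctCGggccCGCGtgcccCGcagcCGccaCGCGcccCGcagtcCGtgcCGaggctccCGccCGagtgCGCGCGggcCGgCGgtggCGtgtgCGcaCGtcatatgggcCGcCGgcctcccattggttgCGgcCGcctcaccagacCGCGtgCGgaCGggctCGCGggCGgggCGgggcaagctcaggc

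For FDPS the last 200 bp of the listed promoter window next to that of the start are given. They lie at chr1:155278301-155278500, from -356 to -157, and contain 11 of the 22 CpG sites of this window.
FDPS, listed: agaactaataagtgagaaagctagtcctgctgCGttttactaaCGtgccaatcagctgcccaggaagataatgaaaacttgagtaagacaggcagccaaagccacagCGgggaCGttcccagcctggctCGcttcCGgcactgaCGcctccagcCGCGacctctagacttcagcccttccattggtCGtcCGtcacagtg

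In the promoters, counted as the 6 windows whose midpoints lay within 3000 bp before the start, 17 of 24 windows were listed. Over the promoters of all protein-coding genes 38.4% of windows were listed. The study searched for genes that met its criteria both for RNA expression and for raised promoter 5hmC under the same 4 conditions. It named these 4 as genes of the cholesterol metabolic process, and reports raised 5hmC peaks in their promoters. A high listed share in their promoters, here and in the ratios below, is therefore not independent of that choice. INSIG1 had 4 of 6, FDPS 5, SQLE 5 and APOC1 3. Among the 19852 genes with 6 promoter windows free of undetermined bases the median was 2, and 25.3% had no listed window. As many as INSIG1 or more were listed for 28.8% of these genes, as many as FDPS or SQLE or more for 16.6%, and as many as APOC1 or more for 43.0%. With 6 windows a promoter the numbers of the 4 genes are close to one another, and a gain or loss of 1 window would reorder them.

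The start of transcription itself fell in an unlisted window for INSIG1, FDPS and SQLE and in a listed window for APOC1. Of the windows that hold the start of a protein-coding gene, 27.2% were listed. The start windows had 69 CpG sites for INSIG1, 65 for SQLE, 32 for FDPS and 17 for APOC1. Over all genes the listed share of start windows was 52.1% with 10 to 19 CpG sites, the class of APOC1, 28.5% with 20 to 39, the class of FDPS, and 12.0% with 60 or more, the class of INSIG1 and SQLE. The listing at the start of each gene is thus the more frequent one in its CpG class.

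**Figure D1:**
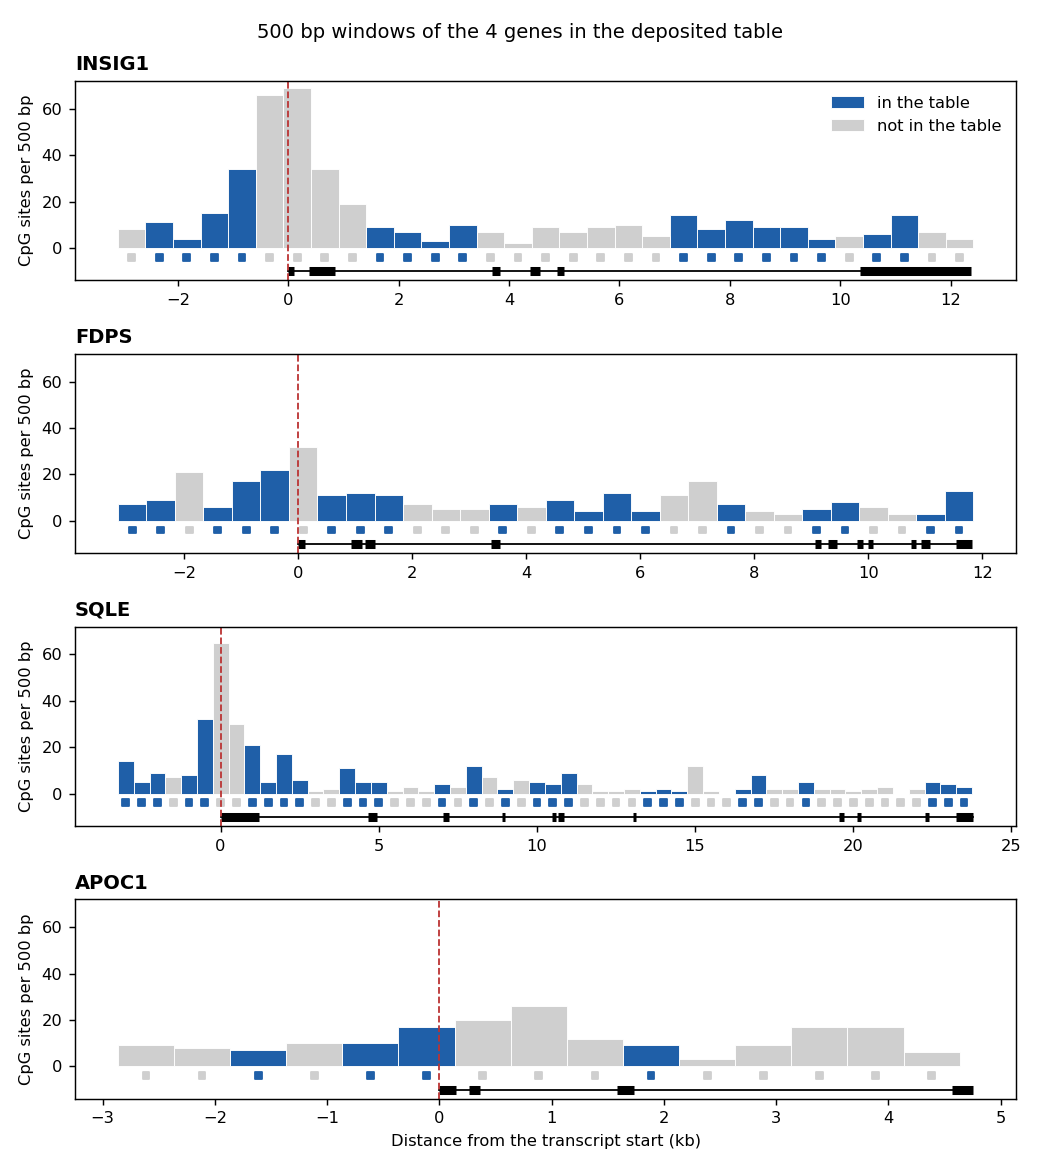
Windows of the 4 genes by distance from the transcript start in kb (x axis, with its own range for each gene) and number of CpG sites per 500 bp window (y axis). Blue windows are listed and grey ones are not, the row of squares repeats this for windows with few CpG sites, black bars are exons of the canonical transcript and the dashed line is its start. Around the starts of INSIG1, FDPS and SQLE, unlisted CpG-rich windows lie between listed windows on either side.

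The canonical transcript of INSIG1 lies on the plus strand at chr7:155089588-155101945 and has 6 exons. Its windows fell into long blocks. From -2587 to -588 all 4 windows were listed, with 11, 4, 15 and 34 CpG sites in order towards the gene. The next 4 windows, from -587 to 1412, were unlisted and had 66, 69, 34 and 19 CpG sites. They hold the first exon with the start codon, the second exon, which with 407 coding bases has more than any other window of the gene, and part of the second intron. This stretch of 2000 bp is followed by 4 listed windows up to 3412, with 3 to 10 CpG sites. The INSIG1 windows with 34 CpG sites thus fell on both sides, listed upstream and unlisted in the second exon, and the share predicted from their composition, as defined with the gene bodies, was the same, 45.3%.

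Farther into INSIG1 the blocks continued. The 7 windows from 3413 to 6912 were unlisted, with 2 to 10 CpG sites, and include all 3 exons between the second and the last. The 6 windows from 6913 to 9912, all in the last intron, were listed, with 4 to 14 CpG sites. None of the 7 windows with coding bases was listed, where 1.43 were predicted from composition. Of the 14 windows that lie in introns only 10 were listed, where 4.58 were predicted. Over all protein-coding genes 32.1% of gene body windows with coding bases and 20.5% of those without an exon were listed. In the 3′UTR, 2 of the 4 windows made wholly of it or of it and downstream sequence were listed. Each of the 15 unlisted windows of INSIG1 was unique, in the sense that every sequence of 50 bases in it, the read length of the study, occurs once in the genome by exact match. Of the 16 listed windows 14 were unique in this sense, and the lowest share of unique sequences in the other 2 was 69.6%.

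That of FDPS lies at chr1:155278657-155290456 and has 11 exons. The stretch without a listed window at its start was a single window, from -156 to 343, with the first exon and 32 CpG sites. Listed windows flanked it on both sides, 3 upstream with 6, 17 and 22 CpG sites and 3 downstream with 11, 12 and 11. In the promoter the unlisted window was that from -2156 to -1657, of which 66.7% of the 50-base sequences occur once in the genome and the most frequent one occurs 284 times. In the gene body 13 of 24 windows were listed, and they alternated with unlisted windows in runs of 1 to 4. Windows with coding bases were listed in 6 of 8 cases and windows in introns only in 7 of 15. The 2 neighbouring unlisted windows from 6344 to 7343, with 11 and 17 CpG sites, had 47.2% and 63.6% unique sequences. Listed windows held repeated sequence too, with 71.8% as the lowest share of unique sequences among them. In the listed window from -656 to -157 this share was 78.9%, and its most frequent sequence occurs 5259 times. In the unlisted start window every 50-base sequence occurs once. Over the gene and its promoter the median share of unique sequences was 99.9% in listed and 90.4% in unlisted windows, and the part of repeated sequence in the listing was not tested. The windows of FDPS from 7844 on also lie in RUSC1-AS1, a long non-coding RNA gene on the opposite strand, so that their listing belongs to both genes.

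That of SQLE lies at chr8:126010747-126034525, also on the plus strand, and has 11 exons. The start lay in a stretch of 2 unlisted windows, from -246 to 753, with 65 and 30 CpG sites, which hold most of the 5′UTR. The window just upstream, with 32 CpG sites, was listed, and so were the 4 windows from 754 to 2753, with 21, 5, 17 and 6. The window upstream overlaps SQLE-DT, a long non-coding RNA gene that runs the other way. In the gene body 22 of 48 windows were listed. Windows with coding bases were listed in 10 of 13 cases, against 12 of 33 windows in introns only. The longest run without a listed window was 7 windows from 18754 to 22253, with at most 3 CpG sites each. SQLE had listed windows with very few CpG sites. With 2 CpG sites or fewer, 5 of its 22 windows were listed, where over all autosomal windows the share was 4.97%, and with 3 to 5 CpG sites 11 of 15 were listed, where the autosomal share was 14.6%. The 1 Mb on either side of SQLE was often listed too. Its windows had a median of 4 CpG sites, and 55.4% were listed where 18.6% were predicted from composition. In listed and in unlisted windows of SQLE the median share of unique sequences was 100%.

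That of APOC1 lies at chr19:45417865-45422603 and has 4 exons, so that only 9 windows have their midpoint in it. Of these 1 was listed, from 1636 to 2135, with 9 CpG sites and part of the third exon. The listed promoter windows were that of the start, from -364 to 135, which has its midpoint upstream, the one before it and the one from -1864 to -1365. Inside the gene 3 unlisted windows from 136 to 1635, with 20, 26 and 12 CpG sites, and 5 from 2136 to 4635, with 3 to 17, lay on either side of the listed one. No window of APOC1 was unique throughout. The median share of unique sequences was 89.2% in the 4 listed and 84.5% in the 11 unlisted windows. In the gene body this share was 94.9% in the listed window, with a median of 78.5% in the 8 unlisted ones. The prediction from composition takes no account of repeated sequence, and its part in the listing was not tested. The lowest share of the gene, 54.5%, belonged to a listed window, that from -864 to -365. The promoter windows of APOC1 also lie in a transcribed locus of unverified status (ENSG00000280087) on the same strand.

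The direction of the difference between coding and intronic windows was not the same in the 4 genes. Listed windows were the more frequent ones among coding windows in FDPS and SQLE and among intronic windows in INSIG1, while APOC1 had 1 of 4 and 0 of 5. From composition 3.04 of 8 coding and 5.35 of 15 intronic windows were predicted for FDPS, 1.53 of 13 and 4.03 of 33 for SQLE, and 2.08 of 4 and 2.03 of 5 for APOC1. Together the 4 genes had 17 of 32 coding windows and 29 of 67 windows in introns only listed. Neighbouring windows are not independent, so that no test was made.

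The gene bodies were compared with the share predicted from composition. The predicted share of a window was taken from autosomal windows equal to it in CpG number and close to it in GC content, and 17.6% of all autosomal windows were listed. In gene bodies of protein-coding genes 21.8% of windows were listed. The share was 48% in INSIG1 (95% exact Clopper-Pearson interval 27.8% to 68.7%), 54.2% in FDPS (32.8% to 74.4%), 45.8% in SQLE (31.4% to 60.8%) and 11.1% in APOC1 (0.281% to 48.2%). These intervals treat windows as independent and are too narrow where neighbours are listed together. The intervals of the 4 genes overlap. The median over 18464 genes with at least 5 windows was 25.7%, and 70.8% of the genes had a lower share than INSIG1, 75.3% than FDPS, 69.3% than SQLE and 28.0% than APOC1.

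**Figure D2:**
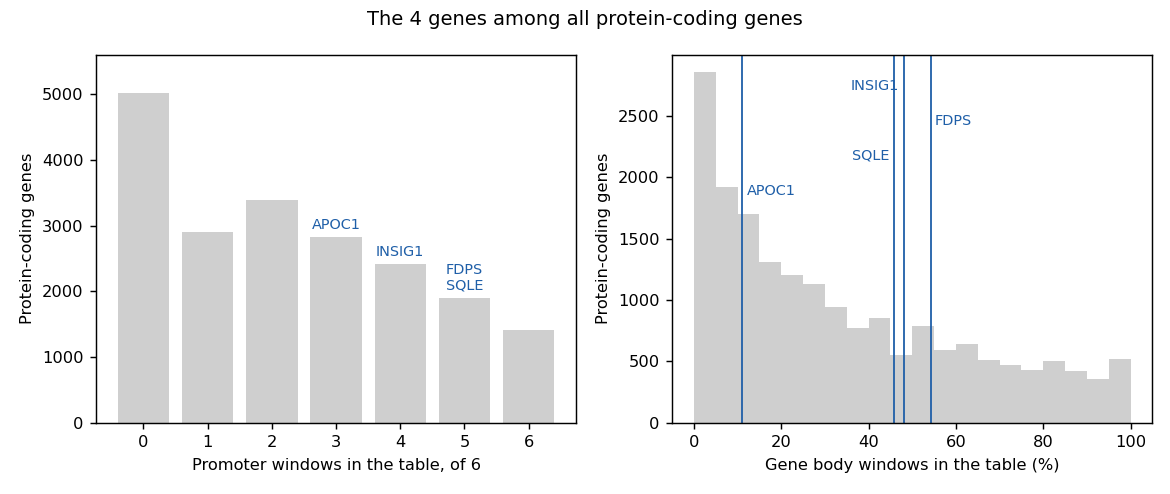
Number of protein-coding genes (y axis) by the number of listed promoter windows out of 6 (left) and by the share of listed gene body windows in percent (right, in steps of 5). The 4 genes are named at their values, with 3 to 5 listed promoter windows and, for INSIG1, FDPS and SQLE, gene body shares from 45.8% to 54.2%, against 11.1% for APOC1.

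Set against the prediction, the order of the genes was another one. SQLE is poor in CpG sites, with a median of 3 in its gene body windows against 9 in INSIG1, 7 in FDPS and 12 in APOC1. A listed share of 13.0% was predicted for it, so that its ratio of listed to predicted windows was 3.54, and 98.9% of genes had a lower ratio. The ratio was 1.77 for INSIG1, 1.48 for FDPS and 0.244 for APOC1, and 81.6%, 69.2% and 12.8% of genes had a lower one. In the promoters the ratios were 2.61 for SQLE, 2.10 for INSIG1, 1.98 for FDPS and 0.998 for APOC1. The order of the genes depends on the prediction. From CpG number alone FDPS came before INSIG1, with 2.03 against 1.86 in the promoter and 1.83 against 1.5 in the gene body, and from windows of the same chromosome INSIG1 (2.41) came before SQLE (2.36) in the promoter. For APOC1 the gene body had 1 listed window where 4.10 were predicted.

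**Figure D3:**
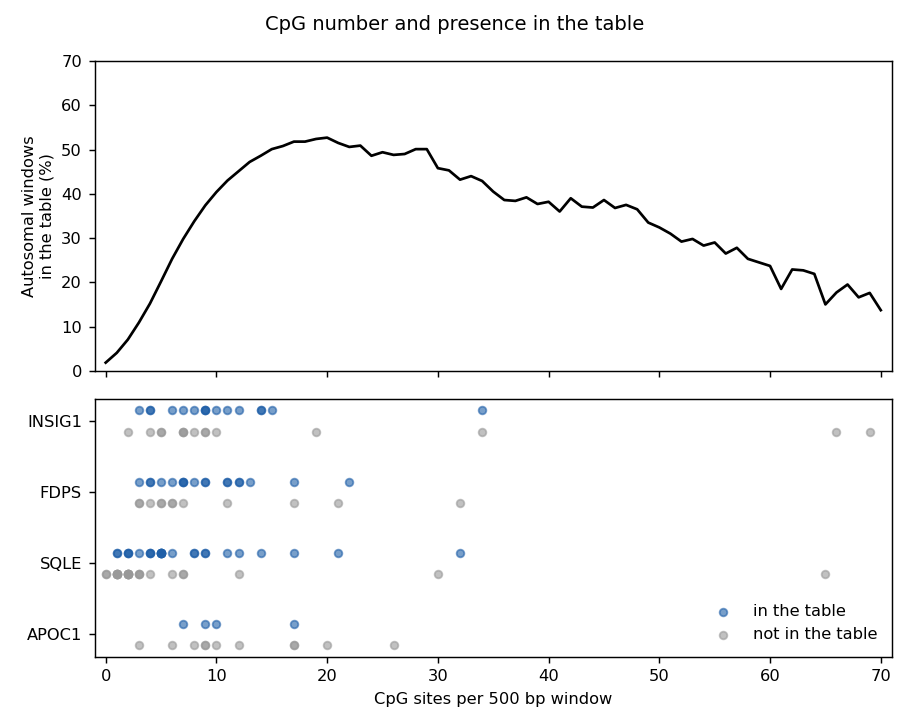
Share of autosomal windows that are listed, in percent, by their number of CpG sites (top) and the windows of the 4 genes by the same number (bottom, 1 point a window, blue listed and grey unlisted, darker where points coincide). Over the genome the share rises and then falls with the number of CpG sites, and the 3 windows of the 4 genes with 40 or more sites are unlisted.

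Over the 4 genes, listed and unlisted windows overlapped widely in CpG number. Listed windows had 1 to 34 CpG sites with a median of 8, and unlisted windows 0 to 69 with a median of 6. With 11 to 20 CpG sites 16 of 24 windows were listed, against 47.4% of autosomal windows. The 3 windows with more than 40 sites were unlisted. They had 65, 66 and 69, numbers at which 15%, 17.7% and 17.6% of autosomal windows were listed.

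The surroundings of the 4 genes differed in the same measure. In the 1 Mb on either side of each gene, without the gene and its promoter, the ratio of listed to predicted windows was 2.97 around SQLE, 1.39 around FDPS, 0.987 around APOC1 and 0.843 around INSIG1. The ratio of promoter and gene body together was 3.32 for SQLE and 1.60 for FDPS, near that of the surroundings in both cases. For INSIG1 it was 1.85, above the surroundings, and for APOC1 0.562, below them. The share behind the ratio was 51.6% of 31 windows in INSIG1 (95% exact Clopper-Pearson interval 33.1% to 69.8%) against 25.2% of 3793 windows around it, and 26.7% of 15 windows in APOC1 (7.79% to 55.1%) against 33.5% of 3994. In SQLE 27 of 54 windows were listed (36.1% to 63.9%), which is a lower share than the 55.4% of 3994 windows around it. Its ratio was nevertheless the higher one, since 15.1% were predicted in SQLE and 18.6% around it. In FDPS 18 of 30 windows were listed (40.6% to 77.3%), against 43.6% of 3994 around it. These ratios and shares were not tested against each other, and no input library was analysed here.

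**Figure D4:**
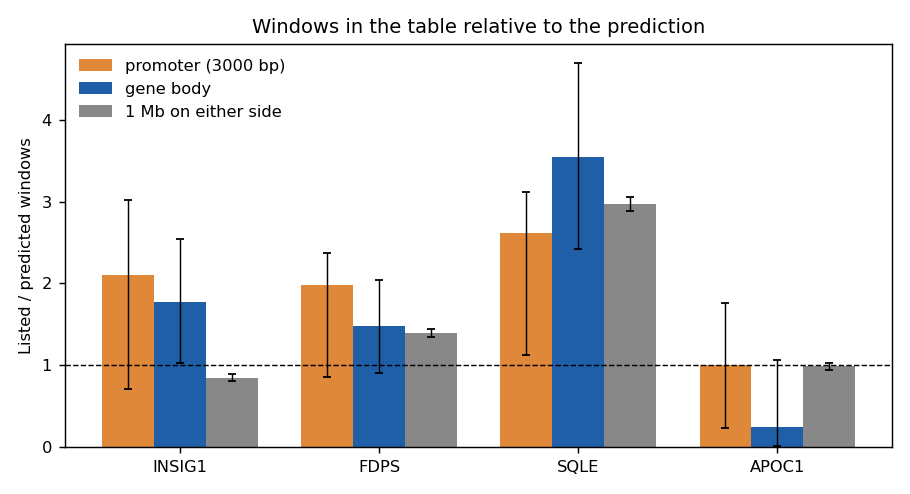
Ratio of listed windows to the number predicted from CpG number and GC content (y axis) for promoter, gene body and the 1 Mb on either side of each gene (x axis). Error bars are 95% exact Clopper-Pearson intervals of the listed share divided by the predicted share, and the dashed line is a ratio of 1. The ratios of SQLE are 2.61 in the promoter and 3.54 in the gene body against 2.97 around it. Those of FDPS are 1.98 and 1.48 against 1.39. The gene body of INSIG1 (1.77) lies above its surroundings (0.843).

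The unlisted stretch at the start was compared with other genes. Of the protein-coding genes 14585 had their start in an unlisted window, and the median length of the stretch without a listed window around it was 3000 bp. It was 2000 bp for INSIG1, 1000 bp for SQLE and 500 bp for FDPS. A stretch of the same length or shorter was found in 41.7% of these genes for the length of INSIG1, 22% for that of SQLE and 8.18% for that of FDPS.

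The promoters were searched for short motifs on both strands. ACGTG and GCGTG are the core sequences bound by hypoxia-inducible factors, and TCACNCCAC is a form of the sterol regulatory element bound by SREBP. ACGTG was found 6 times upstream of INSIG1, 3 times upstream of FDPS, 5 times upstream of APOC1 and 2 times upstream of SQLE, where a CACGTG counts on both strands. It occurs in 80.7% of the 19852 promoters of the same length, with a median of 2. GCGTG was found 12, 6, 7 and 6 times in the same order, and occurs in 90.8% of promoters with a median of 3. All matches of ACGTG upstream of FDPS, SQLE and APOC1 lie in listed windows, whereas of those upstream of INSIG1 2 do and 4, among them the 3 nearest to the start, do not. The matches of GCGTG were divided otherwise, with 6 in listed and 6 in unlisted windows for INSIG1, 4 and 2 for FDPS, 4 and 2 for SQLE, and 2 and 4 for APOC1, where 1 more lies outside the assigned windows. The share of matches in listed windows over all promoters was not computed, so that these counts do not set the genes apart. TCACNCCAC was in none of the 4 promoters and occurs in 21.3% of all. These are matches of letters and not sites of binding.

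Other genes of cholesterol synthesis and its regulators were counted from a list of 25. At least 1 promoter window was listed for 18 of them and 4 or more for 9, where the shares over all genes were 74.7% and 28.8%, so that the first count is no higher than over all genes. The median was 3 of 6, against 2 over all genes. HMGCS1, the synthase of HMG-CoA, and SREBF1, which encodes an SREBP, were among the genes with all 6 listed. Among those with none listed were GGPS1, NSDHL, HSD17B7, EBP, SC5D and MBTPS2. Of these NSDHL, EBP and MBTPS2 lie on the X chromosome, where 3.99% of all windows were listed. The start window was listed for HMGCS1 and DHCR7 and unlisted for the other 23, DHCR7 being named here only after its value was seen. The start windows of the list had 28 to 68 CpG sites, and over all genes 28.5% of start windows with 20 to 39 sites, 23.1% of those with 40 to 59 and 12.0% of those with 60 or more were listed. The median listed share of the gene bodies was 30.4%, and the median ratio to the prediction 1.42, against 25.7% and 1.09 over all genes.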

How the data were processed

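The study enriched DNA from 4 FaDu cultures, sequenced 50-base single-end reads and, per its methods, mapped them to hg19 with Bowtie 0.12.7, removed duplicate and multiply mapped reads and ran MEDIPS. The deposited table gives the first and last base of 500 bp windows, counted from 1, and 4 columns whose names match no sample label. No step used these 4 columns, so that the depth per sample and the precision of values per library are not given. No other unit than position was used.

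Windows were laid on GRCh37, whose chromosome lengths contain all listed windows except on the mitochondrial chromosome. CpG sites and G and C bases were counted in the 5717052 windows without an undetermined base. The predicted share was that among autosomal windows with the same CpG number (40 or more as 1 class) and GC content in steps of 25 bases. For each of 19881 protein-coding genes the start was taken from its canonical transcript (GENCODE version 44, GRCh37 mapping). Sequences of 50 bases were searched exactly on both strands. The prediction and this search were tested on simulated data. The genes named are the 4 members, genes overlapping them and, from the list of 25, the highest and lowest by listed promoter windows, ties included. Some items of these sets are not reported here. Members, list and comparisons were chosen with earlier results of these data known. The tools were Numba 0.67.0, SciPy 1.17.1, pandas 2.3.3, NumPy 2.4.6 and Matplotlib 3.10.9 under Python 3.11.15.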

Additional observations from a re-analysis of the deposited data

How the results depend on the processing

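The comparison of the 4 libraries was not run, since no column of values could be assigned. No paired analysis was possible because no column could be tied to any of the 4 single libraries. Of the values recomputed under the alternatives, 51 stayed within the 95% binomial interval of the main value and 12 moved outside it. This interval does not measure the effect of a processing choice. It is wide for a gene with few windows and narrow over all genes. A change from 11.1% to 20.0% in the gene body of APOC1 thus counted as within, and one from 21.8% to 21.5% over all gene bodies as outside. Some alternatives left the windows of a gene unchanged. With the promoter shortened to 1500 bp, the listed share was 100% for FDPS (3 of 3 windows) and 41.9% over all protein-coding genes. With starts moved to the outermost 5′ end of each gene, the share of all gene bodies was 21.5%, and that of APOC1 was 20.0% (2 of 10 windows). Without a prediction, against all autosomal windows, ratios rose to 3.79 in the promoter, 2.73 in the gene body and 2.94 over both for INSIG1, to 4.74, 3.08 and 3.41 for FDPS, to 4.74 in the promoter of SQLE, and to 2.84 in the promoter and 1.52 over both for APOC1. Both of these APOC1 ratios, under 1 with the prediction, thus crossed 1, which lay within their intervals, while that of its gene body stayed under 1 (0.632). The gene body ratio of SQLE was 2.61 without a prediction, 2.73 with CpG number alone and 2.69 with windows of its own chromosome. Presence in the table gives no level, and the few windows a gene limit every share given here.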
